A study of Sus scrofa with 18 samples.

Results

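The genes described here are 56 chemokines, interleukins, members of the tumour necrosis factor (TNF) family and their receptors, measured in pig kidney. They stand among 6765 genes that the array's platform annotation names by a probe set with a single symbol. They were chosen by symbol: IL, CCL, CXCL, CCR or CXCR followed by a digit, any TNFRSF or TNFSF, and TNF. Left out by name were 10 such genes (IL1B, IL18, IL1R1, IL6, CCL2, CCL8, CXCL8, CXCL12, CCR1 and TNFRSF12A). Where a gene had several probe sets, as 6 did, the one with the highest mean over all 18 arrays stood for it, and no difference between groups entered the choice. The genes comprise 15 chemokines, 6 chemokine receptors, 16 interleukins (with the interleukin-binding protein IL18BP), 11 interleukin receptor chains, 4 TNF family ligands and 4 TNF family receptors.

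The study was about injury of transplanted organs when blood flow returns, known as ischemia and reperfusion injury, and about carbon monoxide (CO), a gas that cells also make by breaking down heme. Messenger RNA of each kidney was hybridised to 1 Affymetrix pig array. The 5 groups were transplanted kidneys with CO at 24 h, transplanted kidneys with CO at 4 h, transplanted kidneys without CO at 24 h and at 4 h (n = 4 in each of these groups), and naive kidneys that were not transplanted (n = 2). Donors 5 to 8 gave the 24 h kidneys and donors 1 to 4 the 4 h kidneys, and each donor number has 1 CO and 1 untreated kidney. The labels name no strain, sex or age of the pigs, and they do not say whether the donor, the graft or the recipient received CO. Lists of array values below run from donor 5 to 8 or from donor 1 to 4, and naive values from replicate 1 to 2.

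Chemokines are small secreted proteins that bind receptors on leukocytes and guide them into tissue. Many interleukins act through receptors of several chains, and many of these receptors signal through JAK kinases and STAT transcription factors. TNF family ligands bind receptors that either activate the transcription factor NF-kB or start cell death, and in kidney both leukocytes and the tubule and vessel cells carry such receptors.

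Values are log2 levels, and a probe set's level was compared only between groups and never with another probe set's. Changes were tested with limma over all 23999 probe sets, and a gene is called changed where its Benjamini-Hochberg adjusted p was under 0.05. Changes are differences of mean log2 levels, with limma's standard error after ±. Array medians lay between 3.753 and 3.943. Among untreated 4 h kidneys donor 1 stood apart, with a mean correlation of its array of 0.982 with the naive arrays and 0.956 with its own group. The calls that change without it are given with and without it.

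Marker lists showed what else differed between the groups. The 3 measured tubule markers of 10 listed (LRP2, SLC22A6 and MIOX) had a mean level of 9.67 to 9.75 in naive kidneys, the tissue the labels name. Over the arrays of each group this mean was 5.99 to 7.52 at 24 h with CO, 7.57 to 9.15 at 4 h with CO, 5.35 to 6.43 at 24 h untreated and 8.67 to 9.24 at 4 h untreated. The mean of 4 pan-leukocyte markers of 5 listed was 4.63 to 7.03 at 24 h with CO, 4.57 to 4.94 at 4 h with CO, 5.01 to 7.22 at 24 h untreated, 5.68 to 6.68 at 4 h untreated and 4.12 to 4.68 in naive kidneys. Every untreated 4 h kidney was thus above every CO 4 h kidney in this mean, while the 24 h groups overlapped. Within each donor the CO kidney was the lower one in this mean, also at 24 h. Myeloid markers (12 of 18 measured) followed the same order, with 3.73 to 5.68 at 24 h with CO, 3.55 to 3.91 at 4 h with CO, 4.21 to 5.86 at 24 h untreated, 4.05 to 5.45 at 4 h untreated and 3.00 to 3.60 in naive kidneys, where S100A8, S100A9 and S100A12 had means below background. T and NK cell markers (11 of 16 measured) were at 2.67 to 4.53, 2.34 to 3.13, 2.80 to 5.21 and 2.50 to 3.71 in the 4 transplanted groups in the same order, and at 2.46 to 3.05 in naive kidneys. In whole tissue, fewer cells of a type and less RNA per cell cannot be told apart. Against naive kidneys, 6 of 12 myeloid, 3 of 4 pan-leukocyte and 1 of 11 T and NK cell markers rose at 24 h without CO, and 3, 2 and 0 of them at 24 h with CO, where 14.6% and 11.7% of all probe sets passed. The median changes of these lists were 2.50, 2.22 and 1.67 without CO, and 1.92, 1.72 and 1.07 with CO. At 4 h 0 of these markers passed in either group. The part these markers have in the results below was not tested.

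**Figure D1:**
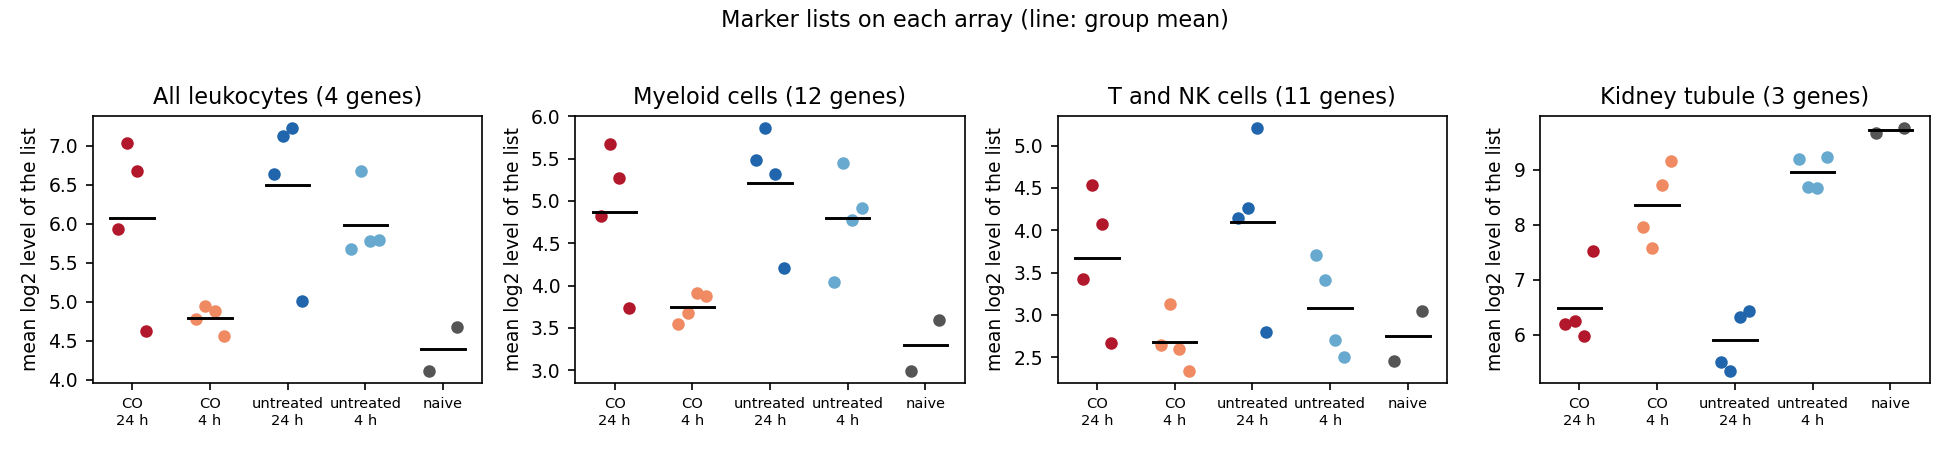
Mean log2 level of each marker list (y axis) on every array, by group (x axis, points for arrays, line for the group mean). CO 4 h kidneys lie at 4.57 to 4.94 in pan-leukocyte markers, against 5.68 to 6.68 in untreated 4 h kidneys, and naive kidneys lie highest in tubule markers.

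Many of the 56 genes gave little signal. Background was set at 1.65, the mean over arrays of the brightest of 17 tag control probe sets, which match no pig gene. The group means of CXCR6, IL12A, IL13, IL17A, IL2RA and IL4 were below it in all 5 groups. Those of 14 further genes never passed 2.65, within 1 log2 unit of background: CCL24, CCL25, CCR3, CCR7, CCR9, IL12B, IL18R1, IL1A, IL2, IL21, IL5, IL6R, IL7 and IL7R. Among these 20 genes are IL2, IL4, IL5, IL12A, IL12B, IL13, IL17A and IL21, interleukins that T helper cells make or that steer them. IL10, another such interleukin, is not, with group means from 2.55 in CO 4 h kidneys to 3.30 in untreated 24 h kidneys. A level below background does not show that a gene was silent. Of the other 36 genes, 18 had their highest group mean in untreated 24 h kidneys, 6 in CO 4 h, 5 in CO 24 h, 2 in untreated 4 h and 5 in naive kidneys. The lowest mean was in naive kidneys for 16 and in CO 4 h kidneys for 12.

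In all, 21 of the 56 genes changed in at least 1 of the 9 comparisons (37.5% beside 32.6% of all probe sets), and 35 passed in none. At 24 h with CO against naive, 5 rose and 1 fell, which is 10.7% of the genes beside 11.7% of all probe sets. At 4 h with CO, 8 rose and 3 fell (19.6% beside 13.6%). At 24 h without CO, 10 rose and 1 fell (19.6% beside 14.6%), and at 4 h without CO 2 rose and 1 fell (5.36% beside 1.5%). These 4 comparisons share the 2 naive arrays. The median change of the 56 genes was 0.38 at 24 h with CO, 0.04 at 4 h with CO, 0.43 at 24 h untreated and 0.21 at 4 h untreated, and that of all probe sets was -0.02, -0.01, 0.01 and -0.03. Between times, 6 genes rose and 1 fell in CO kidneys at 24 h against 4 h (12.5% beside 17.6% of all probe sets), and 3 rose in untreated kidneys at 24 h against 4 h (5.36% beside 9.72%). The share of changed genes was above that of all probe sets in 3 of these comparisons and below it in 3. The counts against naive rest on few arrays, and when a naive array was left out those of all probe sets fell with them. Without naive replicate 1 they were 2 at 24 h with CO, 1 at 4 h with CO, 3 at 24 h untreated and 0 at 4 h untreated, and without naive replicate 2 they were 3, 0, 5 and 0 in that order.

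**Figure D2:**
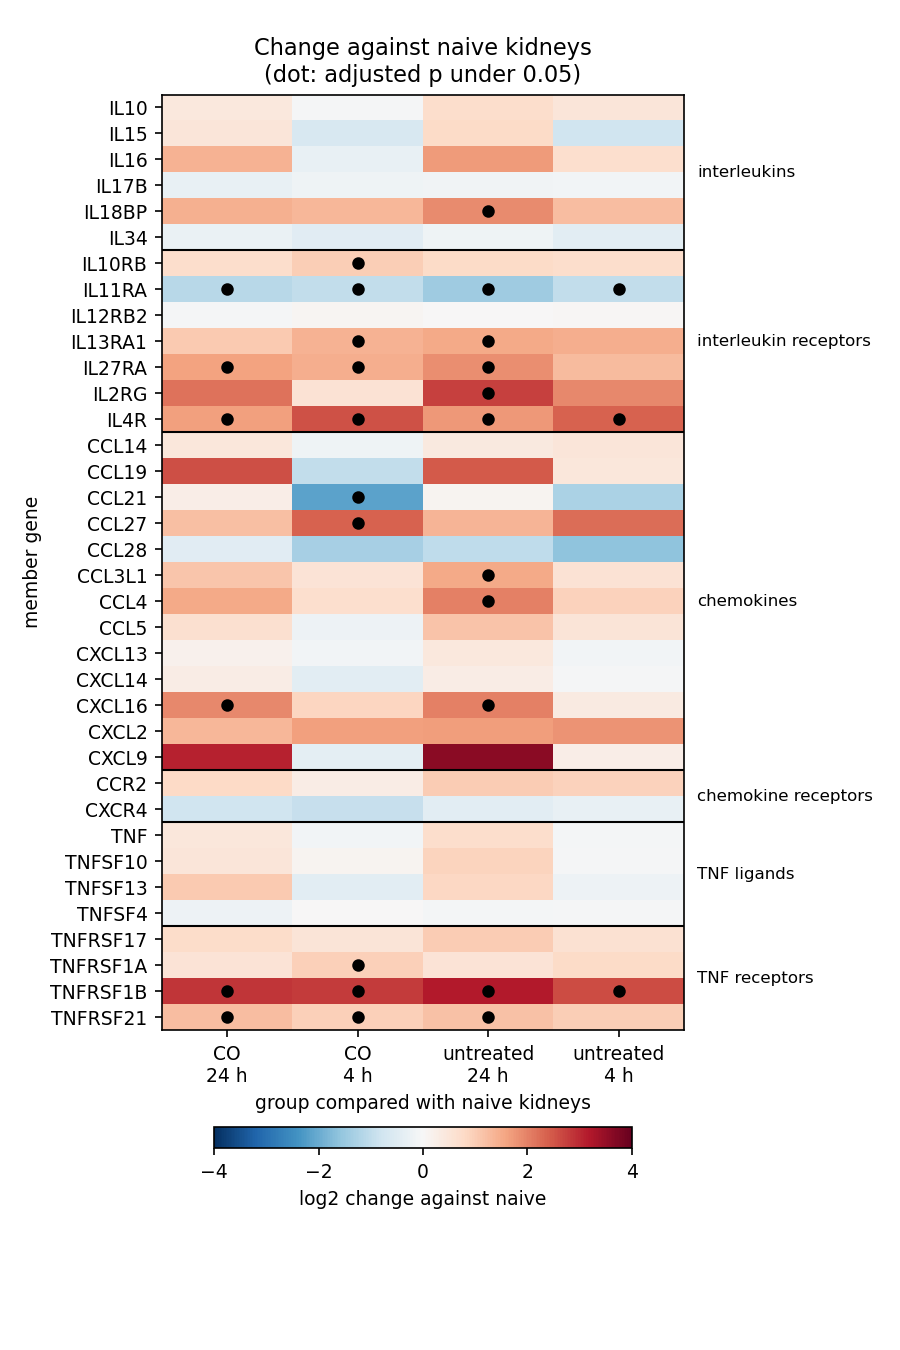
Log2 change against naive kidneys (colour scale) of the 36 genes away from background (y axis, by role) in the 4 transplanted groups (x axis), with a dot where the adjusted p was under 0.05. TNFRSF1B and IL4R are higher and IL11RA is lower with a dot in all 4 columns.

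Of the 4 TNF family receptors, 2 rose against naive kidneys at 24 h with CO (50% beside 11.7% of all probe sets) and 3 at 4 h with CO (75% beside 13.6%). At 24 h untreated 2 rose (50% beside 14.6%) and at 4 h untreated 1 (25% beside 1.5%). TNFRSF1B, the second TNF receptor, carried by leukocytes and by stimulated endothelium and tubules, had levels of 7.55, 8.06, 7.92 and 7.14 in CO 24 h kidneys and 7.54, 8.17, 7.65 and 7.04 in CO 4 h kidneys. It had 7.80, 8.30, 8.02 and 7.75 in untreated 24 h kidneys, 5.71, 8.27, 8.15 and 7.52 in untreated 4 h kidneys, and 4.46 and 5.15 in naive kidneys. Every transplanted kidney was above both naive ones, and donor 1 of the untreated 4 h group was the lowest of them. TNFRSF1B rose at 24 h with CO (2.86 ± 0.52, adjusted p = 0.00327), at 4 h with CO (2.79 ± 0.52, adjusted p = 0.00646), at 24 h untreated (3.16 ± 0.52, adjusted p = 0.00119) and at 4 h untreated (2.61 ± 0.52, adjusted p = 0.0309), all against naive by limma. Without donor 1 the untreated 4 h change was 3.17 ± 0.34. TNFRSF21, known as death receptor 6, rose at 24 h with CO (1.24 ± 0.26, adjusted p = 0.00605), at 4 h with CO (0.97 ± 0.26, adjusted p = 0.0227) and at 24 h untreated (1.16 ± 0.26, adjusted p = 0.00669). At 4 h untreated its change was 0.97 with an adjusted p of 0.0594. TNFRSF1A, the first TNF receptor, which has a death domain and is found on nearly all cells, averaged 7.07 ± 0.17 in CO 24 h kidneys, 7.49 ± 0.33 in CO 4 h kidneys, 7.07 ± 0.32 in untreated 24 h kidneys, 7.30 ± 0.50 in untreated 4 h kidneys (SD, n = 4 each) and 6.53 ± 0.09 in naive kidneys (SD, n = 2). It rose at 4 h with CO (0.96 ± 0.28, adjusted p = 0.0318), and its levels did not pass a test between CO and untreated kidneys or between times. TNFRSF17, a receptor of plasma cells for the ligand encoded by TNFSF13, passed in 0 comparisons.

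Of the 4 TNF family ligands, 1 changed, in CO kidneys between times (25% beside 17.6% of all probe sets). TNFSF13, known as APRIL, a survival factor of B and plasma cells, had levels of 6.38, 5.77, 5.06 and 5.80 in CO 24 h kidneys and 3.69, 4.93, 4.24 and 4.29 in CO 4 h kidneys. The groups did not overlap, and the gene rose (1.46 ± 0.33, limma's adjusted p = 0.00623). A second, dimmer probe set of TNFSF13 differed by 0.13 there with an adjusted p of 0.65, so the rise rests on 1 of its 2 probe sets. In untreated kidneys the brighter probe set differed by 1.03 ± 0.33 between times with an adjusted p of 0.0569. TNF itself, singled out after its values were seen, averaged 3.62 ± 0.70 in CO 24 h kidneys, 3.05 ± 0.11 in CO 4 h kidneys, 3.88 ± 0.37 in untreated 24 h kidneys, 3.08 ± 0.26 in untreated 4 h kidneys (SD, n = 4 each) and 3.16 ± 0.06 in naive kidneys (SD, n = 2). Its largest difference, 0.80 ± 0.27 in untreated kidneys at 24 h against 4 h, had an adjusted p of 0.0696. TNFSF10, known as TRAIL, and TNFSF4, the ligand of OX40, passed in 0 comparisons.

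Among the 11 interleukin receptor chains, 3 changed against naive kidneys at 24 h with CO (27.3% beside 11.7% of all probe sets) and 5 at 4 h with CO (45.5% beside 13.6%). At 24 h untreated 5 changed (45.5% beside 14.6%) and at 4 h untreated 2 (18.2% beside 1.5%). In each group 1 of them fell and the rest rose. IL4R, the chain shared by the receptors of IL-4 and IL-13, had levels of 7.22, 7.33, 7.29 and 7.15 in CO 24 h kidneys and 8.46, 8.34, 8.17 and 7.63 in CO 4 h kidneys. It had 7.38, 7.47, 7.31 and 7.25 in untreated 24 h kidneys, 6.82, 8.29, 8.83 and 7.96 in untreated 4 h kidneys, and 5.65 and 5.56 in naive kidneys. All 16 transplanted kidneys were above the naive ones, and every CO kidney at 24 h was below every CO kidney at 4 h. IL4R rose against naive at 24 h with CO (1.64 ± 0.36, adjusted p = 0.00842), at 4 h with CO (2.54 ± 0.36, adjusted p = 0.00267), at 24 h untreated (1.75 ± 0.36, adjusted p = 0.00459) and at 4 h untreated (2.37 ± 0.36, adjusted p = 0.0133) by limma. In CO kidneys it fell by 0.90 ± 0.29 at 24 h against 4 h (adjusted p = 0.0436, lost in 13 of 18 fits without 1 array). A dimmer probe set of IL4R rose at 4 h with CO (1.53, adjusted p = 0.0222 by limma) but passed against naive in no other group. Its changes were 0.31 at 24 h with CO, 0.57 at 24 h untreated and 1.47 at 4 h untreated, with adjusted p of 0.69, 0.399 and 0.0654. The calls at 24 h and at 4 h untreated thus rest on the brighter probe set, while both fell in CO kidneys at 24 h against 4 h (-1.22 for the dimmer one, adjusted p = 0.0175).

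IL13RA1, the other chain of the receptor for IL-13, rose at 4 h with CO (1.41 ± 0.42, adjusted p = 0.0355) and at 24 h untreated (1.52 ± 0.42, adjusted p = 0.0219). At 24 h with CO its change was 1.06 with an adjusted p of 0.114 (0.0382 without donor 1 of the untreated 4 h group), and at 4 h untreated 1.47 with an adjusted p of 0.0703. IL27RA, a chain of the receptor for IL-27, rose at 24 h with CO (1.61 ± 0.44, adjusted p = 0.0264), at 4 h with CO (1.45 ± 0.44, adjusted p = 0.0394) and at 24 h untreated (1.85 ± 0.44, adjusted p = 0.0106). IL10RB, a chain shared by receptors of the IL-10 family, rose at 4 h with CO (0.97 ± 0.30, adjusted p = 0.0412). Its change against naive was 0.71 ± 0.30 at 24 h with CO, 0.75 ± 0.30 at 24 h untreated and 0.71 ± 0.30 at 4 h untreated, which passed in none of these 3 groups. Without donor 1 of the untreated 4 h group IL10RB passed in all 3, at 24 h with CO (0.71 ± 0.19, adjusted p = 0.0203), at 24 h untreated (0.75 ± 0.19, adjusted p = 0.012) and at 4 h untreated (1.02 ± 0.20, adjusted p = 0.00334).

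IL11RA, the receptor chain specific for IL-11, fell in every transplanted group. It had levels of 5.15, 5.20, 5.28 and 5.40 in CO 24 h kidneys and 5.18, 5.54, 5.23 and 5.54 in CO 4 h kidneys. It had 5.11, 4.91, 5.17 and 4.56 in untreated 24 h kidneys, 5.81, 4.99, 5.28 and 5.36 in untreated 4 h kidneys, and 6.19 and 6.51 in naive kidneys. No transplanted kidney reached the naive levels, and donor 1 of the untreated 4 h group came nearest. Against naive it fell by 1.09 ± 0.21 at 24 h with CO (adjusted p = 0.00434), by 0.98 ± 0.21 at 4 h with CO (adjusted p = 0.0105), by 1.41 ± 0.21 at 24 h untreated (adjusted p = 0.000673) and by 0.99 ± 0.21 at 4 h untreated (adjusted p = 0.0359), all by limma. TNFRSF1B, IL4R and IL11RA were the 3 genes that passed against naive in all 4 groups, IL4R by its brighter probe set only.

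IL2RG, the common gamma chain of the receptors for IL-2, IL-4, IL-7, IL-15 and IL-21, found mainly on lymphocytes, rose at 24 h without CO. It had levels of 4.72, 6.75, 5.69 and 3.16 in CO 24 h kidneys and 3.52, 3.81, 3.70 and 2.86 in CO 4 h kidneys. It had 5.93, 6.60, 6.71 and 3.30 in untreated 24 h kidneys, 4.22, 5.81, 4.64 and 4.69 in untreated 4 h kidneys, and 2.53 and 3.28 in naive kidneys. Donor 8 was far below the other donors in both 24 h groups, and every CO 4 h kidney was below every untreated 4 h kidney, the same split as in the pan-leukocyte markers. T and NK cell markers overlapped between the 4 h groups, at 2.34 to 3.13 with CO and 2.50 to 3.71 untreated. Within every 4 h donor the CO kidney was nevertheless the lower one in T and NK cell markers. Against naive the change was 2.73 ± 0.88 at 24 h untreated (limma's adjusted p = 0.0477, lost in 13 of 18 fits without 1 array) and 2.17 ± 0.88 at 24 h with CO (adjusted p = 0.126). Donor 8 was also the lowest of its group in pan-leukocyte markers in both 24 h groups, at 4.63 with CO and 5.01 untreated.

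**Figure D3:**
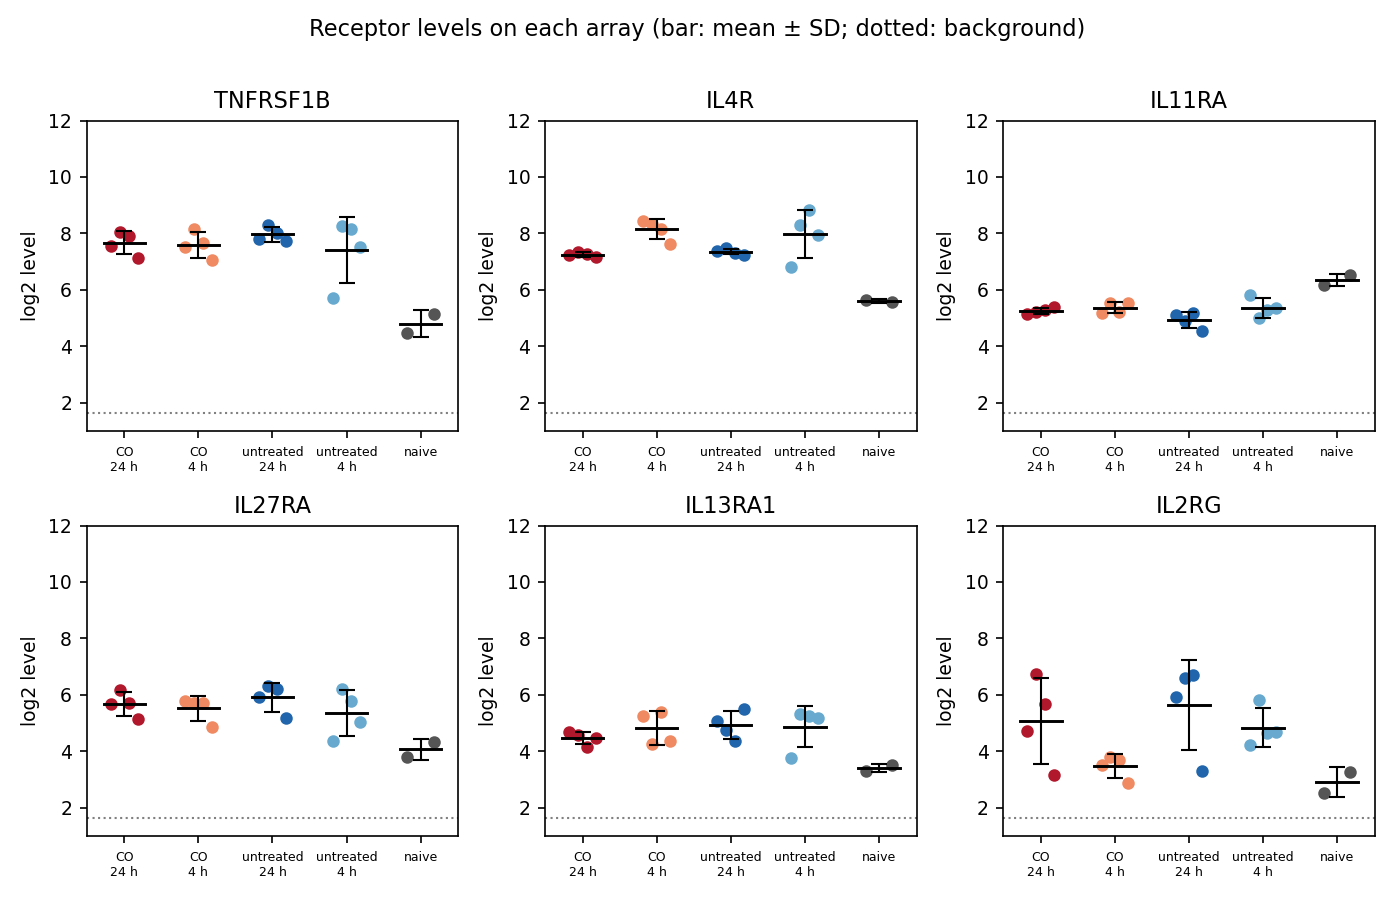
Log2 levels (y axis) of receptor genes on every array by group (x axis, points for arrays, line and bar for mean and SD, dotted line for background). TNFRSF1B and IL4R lie above the naive arrays in all transplanted kidneys, IL11RA lies below them, and IL2RG has donor 8 lowest at 24 h.

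The chemokine that passed most often was CXCL16, a membrane-bound chemokine and scavenger receptor that draws T and NK cells carrying CXCR6. It had levels of 8.95, 9.22, 9.50 and 8.95 in CO 24 h kidneys and 8.47, 8.49, 7.90 and 7.58 in CO 4 h kidneys. It had 8.85, 8.89, 9.61 and 9.62 in untreated 24 h kidneys, 7.38, 7.45, 7.89 and 7.64 in untreated 4 h kidneys, and 7.27 and 7.21 in naive kidneys. Every 24 h kidney was above every 4 h and every naive kidney, donor 8 included. CXCL16 rose against naive at 24 h with CO (1.92 ± 0.28, adjusted p = 0.000917) and at 24 h untreated (2.01 ± 0.28, adjusted p = 0.000466), and it rose at 24 h against 4 h with CO (1.05 ± 0.23, adjusted p = 0.00564) and untreated (1.65 ± 0.23, adjusted p = 0.000552). At 4 h with CO its change against naive was 0.87 ± 0.28 with an adjusted p of 0.0501 (0.045 without donor 1 of the untreated 4 h group). Its receptor CXCR6 was below background in all groups.

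CCL4 and CCL3L1, chemokines made by macrophages and T cells, rose at 24 h without CO. CCL4 had levels of 5.37, 6.44, 5.62 and 4.36 in CO 24 h kidneys and 4.68, 4.39, 5.16 and 4.24 in CO 4 h kidneys. It had 5.58, 6.58, 6.98 and 4.74 in untreated 24 h kidneys, 4.52, 5.43, 4.84 and 4.67 in untreated 4 h kidneys, and 3.52 and 4.37 in naive kidneys. Donor 8 was again the lowest of both 24 h groups, and the CO 24 h kidney of donor 8 was just below the higher naive one. Against naive CCL4 rose by 2.03 ± 0.56 at 24 h untreated (limma's adjusted p = 0.0221), and CCL3L1 by 1.51 ± 0.48 (adjusted p = 0.0449, lost in 12 of 18 fits without 1 array). At 24 h with CO the change of CCL4 was 1.50 ± 0.56 with an adjusted p of 0.0931, and its difference between CO and untreated kidneys at 24 h did not pass. Myeloid markers rose beside these genes at 24 h without CO (6 of 12, 50% beside 14.6% of all probe sets), and so did 1 of 11 T and NK cell markers. The median change there was 2.50 for myeloid and 1.67 for T and NK cell markers, beside 0.01 for all probe sets.

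CCL19 and CCL21, the ligands of CCR7 that guide T cells and dendritic cells to lymphoid tissue, were higher at 24 h than at 4 h with CO. CCL19 had levels of 6.47, 7.08, 5.58 and 3.74 in CO 24 h kidneys and 1.95, 2.79, 2.20 and 1.71 in CO 4 h kidneys. It had 6.06, 5.81, 7.27 and 3.29 in untreated 24 h kidneys, 3.62, 6.34, 2.50 and 1.90 in untreated 4 h kidneys, and 2.31 and 3.98 in naive kidneys. The CO groups did not overlap, while donors 1 and 2 of the untreated 4 h group lay within the untreated 24 h range. CCL19 rose by 3.55 ± 0.93 in CO kidneys at 24 h against 4 h (limma's adjusted p = 0.0154). In untreated kidneys the difference was 2.02 ± 0.93 with an adjusted p of 0.203, and the test of the difference between these time changes gave 1.53 ± 1.32 with an adjusted p of 0.996.

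CCL21 had levels of 5.12, 5.66, 5.66 and 4.98 in CO 24 h kidneys and 2.49, 3.61, 3.11 and 2.63 in CO 4 h kidneys. It had 4.92, 5.24, 4.75 and 5.89 in untreated 24 h kidneys, 5.22, 4.41, 2.74 and 2.96 in untreated 4 h kidneys, and 5.13 and 5.04 in naive kidneys. All CO 4 h kidneys were below the naive ones, while all CO 24 h kidneys lay near them. CCL21 fell by 2.13 ± 0.54 at 4 h with CO against naive (adjusted p = 0.0191) and rose by 2.40 ± 0.44 in CO kidneys at 24 h against 4 h (adjusted p = 0.00197), both by limma. In untreated kidneys at 4 h its change against naive was -1.25 ± 0.54 with an adjusted p of 0.198, and -1.72 ± 0.45 without donor 1, where it passed (adjusted p = 0.0188). CCR7, their receptor, stayed within 1 log2 unit of background.

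CCL27, a chemokine of epithelia that binds CCR10, rose at 4 h with CO. It had levels of 4.89, 4.83, 4.30 and 4.15 in CO 24 h kidneys and 5.73, 4.84, 5.92 and 6.30 in CO 4 h kidneys. It had 4.75, 5.12, 4.28 and 4.70 in untreated 24 h kidneys, 3.20, 5.48, 6.47 and 7.16 in untreated 4 h kidneys, and 3.31 and 3.38 in naive kidneys. Of the transplanted kidneys, donor 1 of the untreated 4 h group alone was not above the naive kidneys. The change at 4 h with CO was 2.35 ± 0.71 (limma's adjusted p = 0.0391), and at 4 h untreated it was 2.23 ± 0.71 with an adjusted p of 0.0961, or 3.02 ± 0.44 without donor 1 (adjusted p = 0.00038). In the Sscrofa11.1 annotation from RefSeq, CCL21, CCL19, CCL27 and IL11RA are neighbours, with 0 genes between CCL21 and CCL19, 1 between CCL19 and CCL27, and 0 between CCL27 and IL11RA. At 4 h with CO, CCL27 rose while CCL21 and IL11RA fell.

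CXCL9, CXCL2 and CCL5, singled out after their values were seen, passed in 0 comparisons over all arrays. CXCL9, a chemokine induced by interferon gamma that draws T cells, averaged 7.53 ± 1.77 in CO 24 h kidneys, 4.08 ± 1.68 in CO 4 h kidneys, 8.08 ± 2.81 in untreated 24 h kidneys, 4.74 ± 1.73 in untreated 4 h kidneys (SD, n = 4 each) and 4.46 ± 1.21 in naive kidneys (SD, n = 2). At 24 h it read 10.49 in the untreated kidney of donor 7 and 4.04 in that of donor 8. Its change of 3.61 ± 1.54 at 24 h untreated against naive was larger than that of any of the 56 genes that passed there, yet its adjusted p was 0.133. At 24 h against 4 h it was 3.45 ± 1.26 with CO and 3.34 ± 1.26 untreated, with adjusted p of 0.0689 and 0.111. CXCL2, which draws neutrophils, averaged 4.17 ± 0.55 in naive kidneys (SD, n = 2), and its changes against them lay between 1.32 and 1.80 with adjusted p between 0.238 and 0.391. CCL5, made by T cells and platelets, had changes between -0.19 and 1.13 with adjusted p of at least 0.473.

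**Figure D4:**
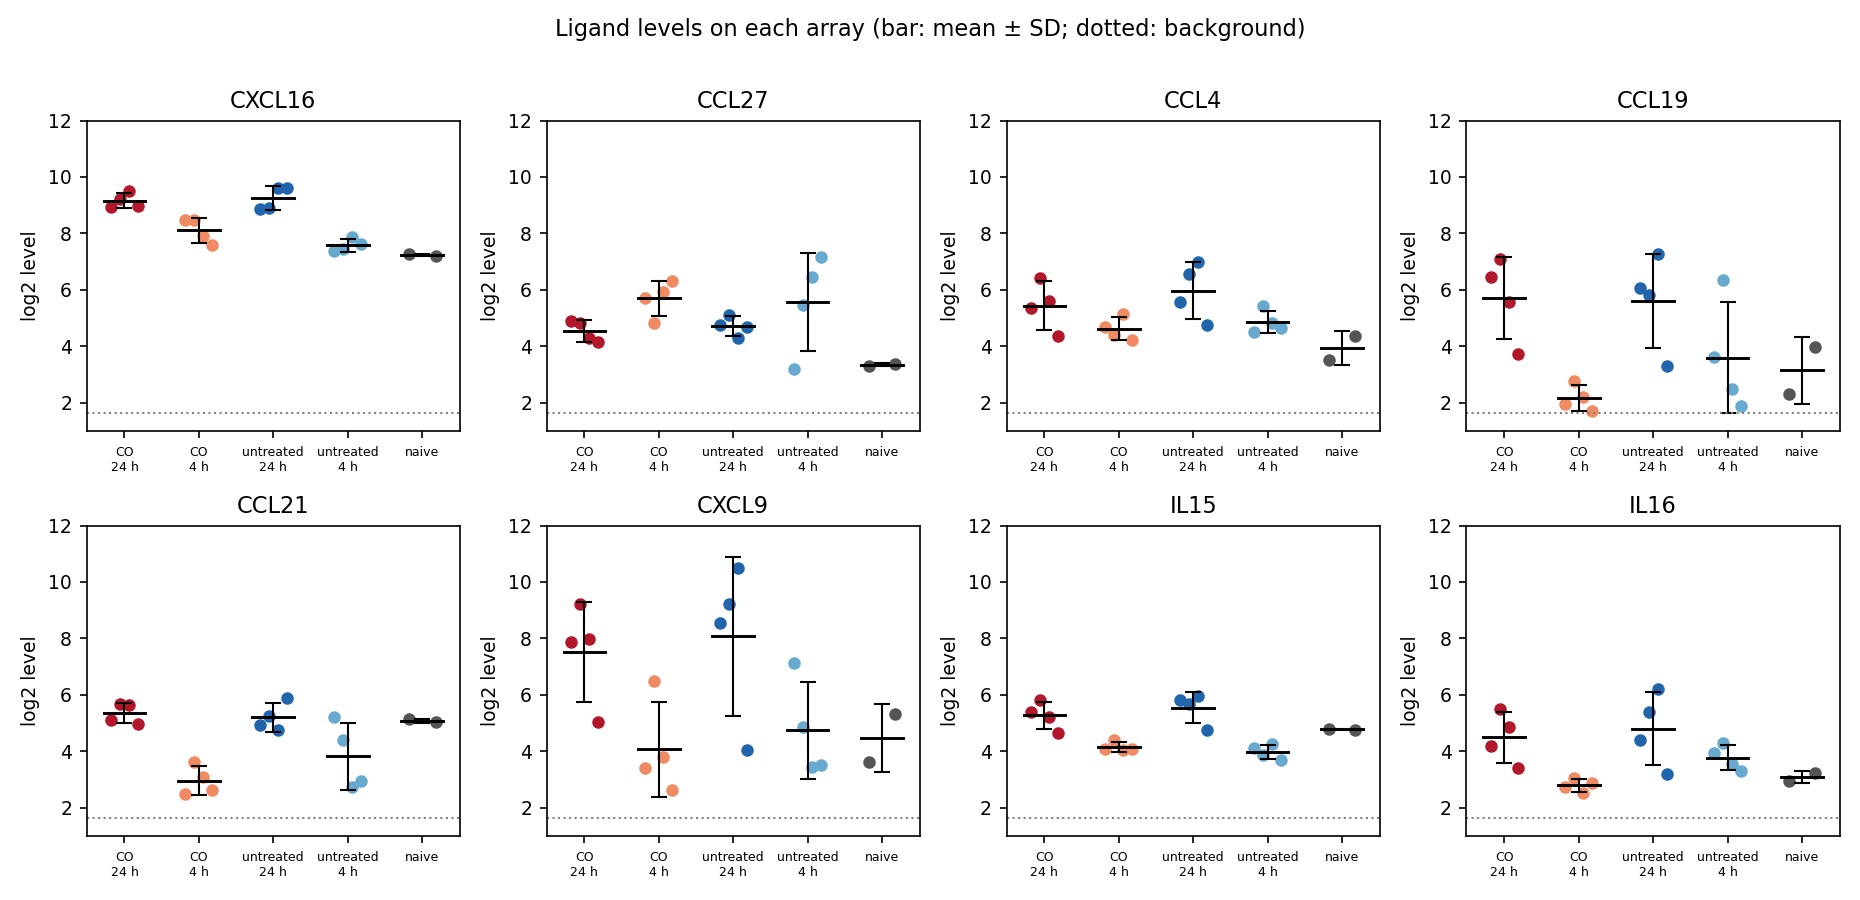
Log2 levels (y axis) of ligand genes on every array by group (x axis, points for arrays, line and bar for mean and SD, dotted line for background). CXCL16 lies above all 4 h and naive arrays in every 24 h kidney, and CXCL9 runs from 4.04 to 10.49 in untreated 24 h kidneys. CCL19 and CCL21 have their lowest group mean in CO 4 h kidneys, whose arrays overlap those of untreated 4 h kidneys.

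None of the 6 chemokine receptors (0 of 6 in each of the 9 comparisons) changed. The smallest p was that of CCR3, an eotaxin receptor of eosinophils, in CO kidneys at 24 h against 4 h. It had levels of 1.83, 2.23, 1.85 and 1.63 in CO 24 h kidneys and 1.33, 1.25, 1.36 and 1.51 in CO 4 h kidneys. All 4 h values were below background, so the ratio is at least 1.18-fold, and limma gave an adjusted p of 0.101. CCR2, the monocyte receptor, and CXCR4, the receptor of CXCL12, were the receptors of this class with signal away from background.

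Of the 16 interleukins, IL15, IL16, IL18BP, IL2 and IL7 changed in some comparison, where 32.6% of all probe sets changed in at least 1 of the 9. IL15, a growth factor of NK and memory T cells that epithelium also makes, had levels of 5.41, 5.81, 5.23 and 4.64 in CO 24 h kidneys and 4.09, 4.40, 4.06 and 4.07 in CO 4 h kidneys. It had 5.81, 5.69, 5.96 and 4.75 in untreated 24 h kidneys, 4.13, 3.89, 4.25 and 3.69 in untreated 4 h kidneys, and 4.80 and 4.77 in naive kidneys. Every 4 h kidney was below both naive ones and every 24 h kidney above every 4 h kidney. IL15 rose at 24 h against 4 h with CO (1.12 ± 0.25, adjusted p = 0.00661) and untreated (1.56 ± 0.25, adjusted p = 0.00132) by limma, while its changes against naive lay between -0.79 and 0.77 and did not pass.

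IL16, a chemoattractant of CD4-bearing cells made by lymphocytes, had levels of 4.21, 5.51, 4.86 and 3.41 in CO 24 h kidneys and 2.74, 3.04, 2.52 and 2.87 in CO 4 h kidneys. It had 4.40, 5.39, 6.22 and 3.20 in untreated 24 h kidneys, 3.96, 4.30, 3.54 and 3.32 in untreated 4 h kidneys, and 2.95 and 3.24 in naive kidneys. Its CO 4 h values were below all untreated 4 h values, and donor 8 was lowest in both 24 h groups. It rose by 1.70 ± 0.51 in CO kidneys at 24 h against 4 h (limma's adjusted p = 0.0294). There 5 of 12 myeloid markers also rose (41.7% beside 17.6% of all probe sets), with 1 of 4 pan-leukocyte markers. Of T and NK cell markers 0 of 11 passed there, and of B and plasma cell markers 0 of 2. The median change was nevertheless 1.295 for T and NK cell markers and 0.419 for B and plasma cell markers. It was 1.591 for myeloid and 1.186 for pan-leukocyte markers, beside -0.037 for all probe sets. IL18BP, a secreted protein that binds and blocks IL-18, averaged 6.59 ± 0.73 in CO 24 h kidneys, 6.50 ± 0.53 in CO 4 h kidneys, 7.05 ± 0.50 in untreated 24 h kidneys, 6.41 ± 0.76 in untreated 4 h kidneys (SD, n = 4 each) and 5.17 ± 0.09 in naive kidneys (SD, n = 2). It rose at 24 h untreated (1.88 ± 0.48, adjusted p = 0.0158), and its changes in the other 3 groups, 1.43 at 24 h with CO, 1.33 at 4 h with CO and 1.25 at 4 h untreated, had adjusted p between 0.0673 and 0.156.

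The other interleukins that passed lie near background. IL7, which sustains lymphocytes, had levels of 1.65, 1.98, 2.26 and 1.49 in untreated 24 h kidneys and 1.03, 1.14, 1.53 and 1.17 in untreated 4 h kidneys. The 4 h values were all below background, and the ranges overlapped because donor 8 at 24 h read less than donor 3 at 4 h. The ratio is at least 1.14-fold with limma's adjusted p of 0.0282, or 0.0582 without donor 1 of the untreated 4 h group. IL2, the T cell growth factor, averaged 1.47 ± 0.25 in CO 4 h kidneys (SD, n = 4) and 2.05 ± 0.10 in naive kidneys (SD, n = 2), a change of -0.58 ± 0.18 (adjusted p = 0.0454, lost in 10 of 18 fits without 1 array) that sits within 1 log2 unit of background. IL10, IL34, IL17B, IL1A and the remaining interleukins passed in 0 comparisons.

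The question the series asks of CO is whether treated kidneys differ from untreated ones at the same time after transplantation. For the 56 genes limma found 0 changes at 24 h and 0 at 4 h, as among all probe sets (0% and 0%), and 0 for the difference of the CO effects between times (0% of all probe sets). At an unadjusted p under 0.05, 0 of 56 genes passed at 24 h (1.17% of all probe sets), 1 of 56 at 4 h (3.28%) and 0 for the difference (2.55%). The 1 gene was CXCL16, 0.52 higher with CO at 4 h. With the donor as a block, which pairs the kidneys, 1 of 56 passed at an unadjusted p under 0.05 at 24 h (CCL3L1, lower with CO, 1.79% beside 1.83% of all probe sets), 5 of 56 at 4 h (8.93% beside 4.61%) and 0 for the difference (beside 4.07%). The 5 genes were CCL14, CCL19, IL10, IL16 and IL2RG, all lower with CO in the mean of the donors (CCL14 and IL10 were singled out after their values were seen). CCL14 differed by -1.64, 0.18, -0.62 and -0.44 in donors 1 to 4, and CCL19 by -1.67, -3.55, -0.30 and -0.19. The intervals of single genes were wide. Without the block, for IL2RG at 4 h the 95% interval of the CO minus untreated difference ran from -2.89 to 0.16, and for IL16 from -2.06 to 0.09. These intervals ignore the pairing. With the block the differences were -1.37 ± 0.28 for IL2RG and -0.99 ± 0.25 for IL16, with limma's adjusted p of 0.291 and 0.647.

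Donors give a second view, since each donor number has a CO and an untreated kidney. At 4 h, 7 of 56 genes were lower in the CO kidney of all 4 donors (12.5% beside 5.87% of all probe sets), namely CCL19, CCR7, CXCL14, IL10, IL16, IL2RG and IL5. The genes higher in all 4 donors were IL13, IL4 and TNFSF4 (5.36% beside 5.71%). At 24 h, 7 were lower in all 4 donors (12.5% beside 4.29%), namely CCL3L1, CCL4, CXCL13, IL13RA1, IL27RA, IL4R and TNFRSF1B, while CCL24 and IL11RA were higher (3.57% beside 4.84%). In donors 5 and 6 the CO and untreated arrays lie in different batches (described below), so CO and batch cannot be told apart in these pairs. These pairs also enter the 24 h fit with the donor as a block. CCR7, IL5, IL13, IL4 and CCL24 are near background. CXCL14 was also within 1 log2 unit of background at 4 h (means of 2.14 with CO and 2.52 untreated), and its dimmer probe set differed by 0 there. Some differences of one sign were small. IL4R differed by -0.16, -0.14, -0.02 and -0.10 in donors 5 to 8, and TNFSF4 by 0.03, 0.08, 0.003 and 0.15 in donors 1 to 4. IL2RG differed by -0.70, -1.99, -0.93 and -1.83 in donors 1 to 4, and IL16 by -1.22, -1.27, -1.02 and -0.45. With the donor as a block, 0 of 56 genes passed the adjusted threshold at 24 h (0% of all probe sets) or at 4 h (0.00417%), and IL2RG had the smallest adjusted p (-1.37 ± 0.28 at 4 h, adjusted p = 0.291). All CO 4 h kidneys were also below all untreated 4 h kidneys in pan-leukocyte markers and in myeloid markers, while T and NK cell markers overlapped. Within donors, though, T and NK cell markers were lower in the CO kidney of all 4 donors at 4 h. They read 2.65, 3.13, 2.60 and 2.34 there, against 3.71, 3.41, 2.70 and 2.50 in the untreated kidneys. At 24 h pan-leukocyte markers were lower in the CO kidney of all 4 donors. They read 5.93, 7.03, 6.68 and 4.63 there, against 6.64, 7.12, 7.22 and 5.01 in the untreated kidneys. Myeloid markers were also lower in all 4 donors, at 4.82, 5.68, 5.27 and 3.73 against 5.48, 5.86, 5.32 and 4.21. T and NK cell markers were higher with CO in donor 6 (4.53 against 4.26) and lower in the other 24 h donors. The part of these markers in the donor differences was not tested.

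**Figure D5:**
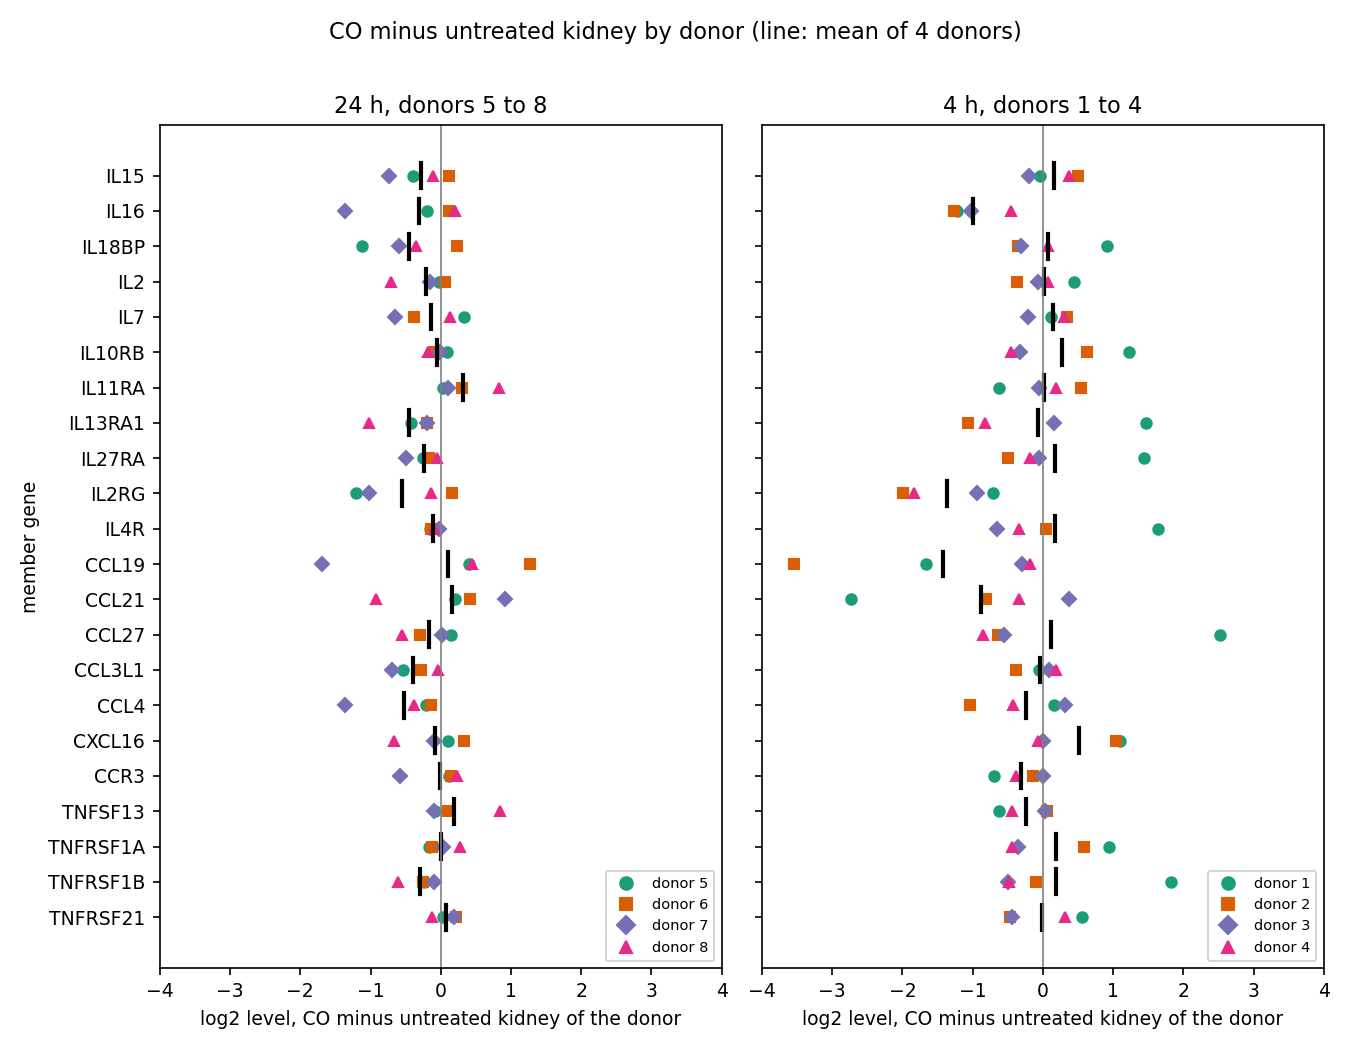
Log2 level of the CO kidney minus the untreated kidney of each donor (x axis) for named genes (y axis), at 24 h and 4 h, with points for donors and a line for the mean of 4 donors. IL2RG and IL16 lie below 0 in all 4 donors at 4 h, and no gene plotted passed the adjusted threshold at either time.

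The array of donor 1 in the untreated 4 h group stood near the naive ones, and since all groups share 1 estimate of the spread, leaving it out moved counts of other groups too. Without it 8 of the 56 genes passed at 24 h with CO against naive (14.3% beside 14.5% of all probe sets), with IL10RB and IL13RA1 added. At 4 h with CO 12 passed (21.4% beside 17.3%), with CXCL16 added, and at 24 h untreated 13 passed (23.2% beside 17.4%), with CCL27 (1.37 ± 0.41, adjusted p = 0.0315) and IL10RB added. In CO kidneys at 24 h against 4 h 9 passed (16.1% beside 20.3%), with CCL24 (0.57 ± 0.19, near background) and CCL27 (-1.15 ± 0.34) added. In untreated 4 h kidneys 12 of the 56 genes then passed against naive, 9 higher and 3 lower, beside 13.9% of all probe sets, where 3 had passed with that array. Beside TNFRSF1B, IL4R and IL11RA these were CCL21, CCL27, CCL28, CXCL2, IL10RB, IL13RA1, IL27RA, TNFRSF1A and TNFRSF21. IL13RA1 changed by 1.83 ± 0.34, IL27RA by 1.61 ± 0.40 and TNFRSF1A by 1.00 ± 0.24, and CCL28 fell by 2.27 ± 0.68 while CXCL2 rose by 2.60 ± 0.72 (CCL28 and CXCL2 were singled out after their values were seen). In untreated kidneys at 24 h against 4 h, 6 genes passed without that array, beside 12.2% of all probe sets: CXCL16, IL15, CCL21 (1.83), CXCL9 (4.13), CCL27 (-1.66) and IL4R (-1.01). IL7 no longer passed there. Between CO and untreated kidneys 0 genes passed with or without it.

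For the signalling genes downstream of these receptors, listed by pathway with earlier results known, counts are given beside the share of all probe sets that passed in either direction. Of 14 NF-kB and TNF receptor signalling genes measured (34 listed, NFKB1 below background), 1 rose at 24 h with CO against naive (7.14% beside 11.7%), 4 at 4 h with CO (28.6% beside 13.6%), 1 at 24 h untreated (7.14% beside 14.6%) and 0 at 4 h untreated (beside 1.5%). At 4 h with CO these included CASP8, a caspase that starts death signalling (1.36 ± 0.35), the NF-kB inhibitor NFKBIA (1.19 ± 0.32) and the interleukin-1 receptor kinase IRAK1 (1.09 ± 0.34). IRAK1 rose at 24 h with CO (1.67 ± 0.34) and untreated (1.60 ± 0.34). Of 16 JAK-STAT signalling genes measured (22 listed), 2 rose at 24 h with CO (12.5% beside 11.7%), 3 at 4 h with CO (18.8% beside 13.6%), 3 at 24 h untreated (18.8% beside 14.6%) and 1 at 4 h untreated (6.25% beside 1.5%). STAT3, which carries signals of the IL-6 and IL-10 families, rose in every group, by 1.17 ± 0.30 at 24 h with CO, 1.58 ± 0.30 at 4 h with CO, 1.36 ± 0.30 at 24 h untreated and 1.35 ± 0.30 at 4 h untreated. The interferon-induced factor IRF1 rose at 24 h with CO (2.83 ± 0.62) and untreated (3.37 ± 0.62). Between CO and untreated kidneys 0 genes of either list passed.

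Dates in the array file names split the arrays into 4 sets, called batches here, and what step they record is not stated. They were uneven across groups. Batch 1 holds 1 naive and 3 donors of both 4 h groups, and batch 2 holds the other naive array, the other 4 h donor of both groups and 1 untreated 24 h array, so the comparisons at 4 h against naive can be made within them. All CO 24 h kidneys lie in batches that hold no naive or 4 h array, so time and batch cannot be told apart for them. In donors 5 and 6 the CO and untreated kidneys lie in different batches, so CO and batch cannot be told apart in their pair differences. In every other donor both kidneys share a batch. With batch as a block, 8 genes passed at 4 h with CO (beside 2862 of 23999 probe sets), 2 at 4 h untreated (beside 105) and 0 in the other comparisons. TNFRSF1B then changed by 2.07 at 24 h with CO (adjusted p = 0.45), 3.01 at 4 h with CO (adjusted p = 0.012), 2.55 at 24 h untreated (adjusted p = 0.116) and 2.83 at 4 h untreated (adjusted p = 0.0429). IL4R changed by 1.54, 2.60, 1.66 and 2.42 in the same order, with adjusted p of 0.498, 0.0103, 0.189 and 0.0401. All named changes kept their sign in this fit. Within batch 2, where each of these groups has 1 array and no test was made, TNFRSF1B was 3.02 higher at 4 h with CO, 2.65 higher at 24 h untreated and 3.12 higher at 4 h untreated than in the naive kidney, and CXCL16 was 1.64 higher at 24 h untreated. Within batch 1 alone, TNFRSF1B was 2.95 and 2.66 higher at 4 h with CO and untreated, and 0 genes passed.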

How the data were processed

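Messenger RNA of 18 pig kidneys was measured on Affymetrix arrays. The log2 values per probe set are those the authors deposited after RMA normalisation, per the submitters' processing notes, with version and settings not given in the sources used here. Values ran from 0.226 to 13.459. Precision is limited by the number of arrays, which hold no counts. Groups follow source and title: the treatment field of CO arrays reads air. Naive arrays carry numbers that recur in the names of donor 4 arrays, so they may share animals, which the tests ignore. P-values measure the spread between these kidneys.

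After 124 control probe sets were left out, 23999 were tested in R 4.3.3 with limma 3.58.1, whose lmFit and eBayes were run on the 18 arrays together (two-sided, Benjamini-Hochberg adjustment). Symbols come from the platform annotation, which gives 10069 probe sets 1 symbol, 198 several and 13732 none, and all 56 genes matched RefSeq. A floor of background, 1.65, bounds folds of dim genes. Genes named are those that passed, the gene of smallest p in a class without one, near-background genes, and up to 3 per pathway list. Members and lists were chosen with earlier results of these data known.

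Donor numbers name the same donor animal, per the labels; after group means were removed, the partner kidneys' deviations correlated above 0.1 in 6 of 8 donors. Alternatives changed the variance model, the filter on dim probe sets, the normalisation, the array weights, the samples in the fit and the block, which was batch or donor (statmod 1.5.0). The test was tried on simulated data. Plots used Python 3.11.15 and matplotlib 3.10.9.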

Additional observations from a re-analysis of the deposited data

Results flagged for a closer look

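In 88 groups of 4 arrays (22 named genes in 4 groups), 4 had 1 array far from the other 3 by Dixon's test, and chance flags about 1 in 20 groups. IL13RA1 read 3.78 in the untreated 4 h kidney of donor 1, against 5.19 to 5.31 in the other donors; that array also stood nearest the naive ones. IL27RA read 4.86 in the CO 4 h kidney of donor 4, against 5.70 to 5.80. IL15 read 4.40 in the CO 4 h kidney of donor 2, against 4.06 to 4.09. IL7 read 1.98 in the CO 24 h kidney of donor 5, against 1.60 to 1.62, all near background. No cause was tested.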

How the results depend on the processing

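Counts of changed genes moved with several choices, and in many of them the counts of all probe sets moved too. Array weights gave 17 genes at 24 h with CO against naive (beside 6224 of 23999 probe sets) and 26 at 24 h untreated (beside 7744). At 4 h untreated they gave 15 (beside 4760). Between times they gave 12 with CO (beside 6934) and 13 untreated (beside 4978). Without weights 2804, 3494, 361, 4226 and 2332 probe sets passed in that order. Batch as a block gave 0 at 24 h with CO (beside 0 of all probe sets), 0 at 24 h untreated (beside 159), and 0 for both time comparisons (beside 0 in each). Batch 1 alone gave 0 at 4 h with CO and 0 at 4 h untreated. A fit of the compared groups alone gave 0 at 4 h untreated (beside 0 probe sets) and 11 for CO at 24 h against 4 h (beside 3847). Leaving out single arrays gave 2 to 9 at 24 h with CO, 0 to 12 at 4 h with CO, 3 to 17 at 24 h untreated, 0 to 12 at 4 h untreated, 5 to 9 for CO between times, 2 to 10 for untreated between times, and 0 to 0 for CO against untreated at 24 h, at 4 h and for their difference. Without naive replicate 1 the counts were 2 at 24 h with CO, 1 at 4 h with CO, 3 at 24 h untreated and 0 at 4 h untreated, and without naive replicate 2 they were 3, 0, 5 and 0. Without the untreated 4 h array of donor 1, 12 genes passed at 4 h untreated and 6 between times in untreated kidneys. Without the untreated array of donor 8, 17 genes passed at 24 h untreated and 10 between times in untreated kidneys, and without its CO array 9 passed at 24 h with CO. At 4 h with CO, 4, 7 and 5 genes passed without the CO arrays of donors 1, 2 and 3 (beside 1442, 3350 and 1882 probe sets). At 4 h untreated 1 passed without donor 2, 3 or 4 (beside 13, 14 and 80). Of 42 results of named genes, 0 changed sign. Passing was lost in 32 with batch as a block, 14 in batch 1 alone, 7 with fewer groups, 4 after quantile normalisation (CCL3L1, IL2RG, IL7 and the fall of IL4R), and 1 each after a median shift (IL2) and with the mean of a gene's probe sets (IL4R at 24 h with CO). CCL3L1 and IL2RG at 24 h untreated lost it in 12 and 13 of 18 fits without 1 array. The donor as a replicate block, fixed for CO against untreated and random elsewhere (correlation 0.128), gave 0 genes for CO at both times and 4 for untreated kidneys between times, and changed no other call.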
